A study of Mus musculus with 4 samples.

Results

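Most of the genes described here carry the insulin signal in the liver cell. They are the insulin receptor (Insr), its adaptors (Irs1, Irs2), the kinases Akt1 and Akt2, and the transcription factors Foxo1, Foxo3 and Foxo4. Listed with them were the genes of the secreted proteins Igfbp1 and Igfbp2. All were looked up by their symbol in the authors' deposited table. Of the 10 genes, 9 had rows there, 24 spots of 15 probes out of 41174 probes in all, and no row carried the symbol Irs2. All 15 probes were among the 39083 that passed the filter on dim signal, and 14 of them were well above background in both channels on all 4 arrays. The genes were listed with earlier results of these data known.

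Liver RNA of 4 male C57Bl/6 mice with a mutant Wrn protein, given 0.4% vitamin C in their drinking water from weaning to the age of 3 months, was labelled with Cy5. Liver RNA of 4 untreated wild-type males of the same age and strain was labelled with Cy3. Each of the 4 arrays, long-oligonucleotide arrays that hold a 60-base probe per spot, carried 1 mutant and 1 wild-type animal, and the dyes were never exchanged. Wrn is a RecQ helicase, and the labels do not say what its mutation removes. Genotype, vitamin C and dye therefore cannot be told apart in any ratio, since untreated mutants and treated wild-type mice were not analysed here. The arrays lay on 1 slide with 1 scan time, and their number limits the precision of all values. All 8 hepatocyte markers examined were well above background in both channels of every array. Array 1 had the fewest probes well above background, 82.5% in the mutant and 84.2% in the wild-type channel, against 94.4% to 96.1% on the other arrays.

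As background, insulin binds its receptor, a tyrosine kinase, which phosphorylates the IRS adaptors. These recruit phosphatidylinositol 3-kinase and so activate Akt, and Akt phosphorylates FoxO factors and drives them out of the nucleus. In fasting liver, nuclear FoxO1 keeps genes such as Igfbp1 and those of glucose output active, whereas after a meal insulin switches them off and raises the enzymes of fat synthesis. FoxO factors are also known to act on the gene of the insulin receptor itself.

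Because probes of the same gene gave different answers, the probe sequences are shown first, as deposited and read 5′ to 3′. Capitals mark the first stop triplet of each of the 3 forward reading frames. Probes are given whole or as a stretch of 30 bases, which starts at base 4 for the first Insr probe and at base 1 for the others.
Insr A_52_P494514: attcTAGcTAAtgaattcttgacaacaTAG
Insr A_52_P6490: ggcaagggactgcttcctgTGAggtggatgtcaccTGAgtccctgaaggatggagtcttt
Irs1 A_52_P171212: aaTGAatgctTAAaacaaggcTAAaaagag
Irs1 A_52_P175242: tacccccaattctgtctggtactTAGaatt
Foxo1 A_51_P138044: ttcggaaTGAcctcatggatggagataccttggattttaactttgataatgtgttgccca
Foxo1 A_52_P453884: ttctgggagaatgttcgctttctggtctat
Foxo3 A_51_P145507: cgtgttttactatcaTGAtggttTAGggga
Foxo3 A_52_P373852: ctccacatcTGAttTAGaaggaaaatctga
Igfbp1 A_51_P447545: aaagttccgatgcTGAttgtgTAAccaaag
Igfbp2 A_51_P423308: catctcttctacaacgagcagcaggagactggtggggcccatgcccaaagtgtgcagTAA
The probes Insr A_52_P494514 and Irs1 A_52_P171212 held a stop triplet in all 3 frames, so in this orientation neither can lie wholly inside a coding sequence. The other 13 probes kept at least 1 frame open. None of the 15 shared a run of 20 bases with a probe of another gene symbol. The second Foxo3 probe was designed on the cDNA AK079567, whereas the first was designed on the Foxo3 transcript NM_019740.

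Foxo1 was lower in the mutants on both of its probes, Insr and Igfbp2 were lower and Irs1 and Foxo3 higher on 1 probe each, and Akt1, Akt2, Foxo4 and Igfbp1 did not pass the test. Ratios are log2 of mutant over wild type on the same array, so a negative value is a lower level in the mutant. The mean over the 4 arrays was tested against 0 with limma, and p-values were adjusted over all 39083 probes. Of the 15 probes 6 had an adjusted p under 0.05, 2 of them higher and 4 lower. Over all probes the same test called 13.0%, with 6.19% higher and 6.80% lower, so that 47.7% of calls were higher, against 58.8% with median centring in place of loess. Taking the brightest probe of each gene, 5 of the 9 genes were called (2 higher, 3 lower), beside 13.7% of all 20687 genes. The ratio had 1 sign on all 4 arrays in 10 of the 15 probes, against 40.3% of all probes. The median log2 ratio of the 15 probes was -0.11, and that of all probes 0.00. The median size of the log2 ratio, without its sign, was 0.19 for the 15 probes and 0.09 for all.

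**Figure D1:**
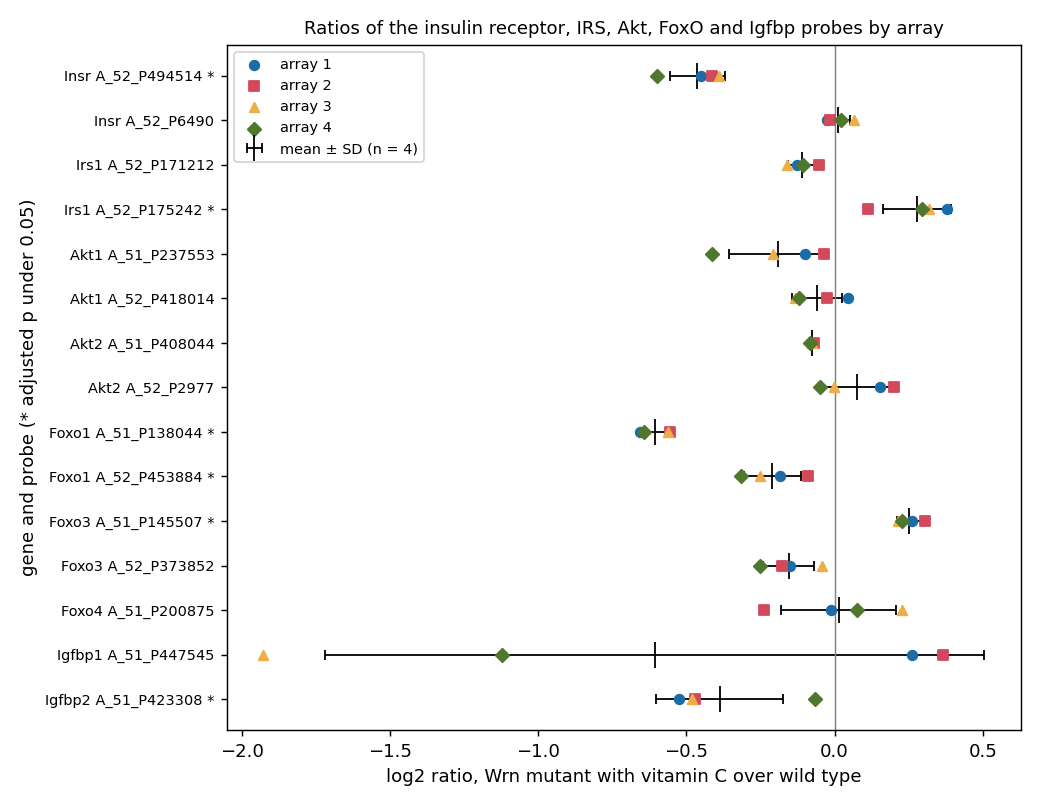
Log2 ratio of the mutant given vitamin C over wild type (horizontal axis) for each of the 15 probes (vertical axis), with 1 coloured point per array and a black mark at the mean with its SD (n = 4); an asterisk marks an adjusted p under 0.05. Probe Foxo1 A_51_P138044 lies between -0.66 and -0.56 on all arrays, whereas Igfbp1 runs from -1.93 to 0.37.

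At the head of the pathway, the Insr probe A_52_P494514 had log2 intensities of 11.87, 11.61, 11.63 and 11.61 in the mutants of arrays 1 to 4 and of 12.32, 12.03, 12.02 and 12.21 in the wild-type mice. Every mutant lay below every wild-type animal. The ratio was -0.45, -0.41, -0.39 and -0.60, a mean of -0.46 ± 0.09 (SD, n = 4) or 1.38-fold lower, with a limma adjusted p of 0.0100. The second Insr probe, A_52_P6490, gave -0.03, -0.02, 0.06 and 0.02, a mean of 0.01 ± 0.04 with a 95% interval from -0.09 to 0.11 (limma adjusted p = 0.884). The receptor's transcript was thus lower on 1 probe and within 0.11 of no difference on the other. The mean of both probes was -0.23 (limma adjusted p = 0.0279). The call of the first probe was lost without replicate 2 (limma adjusted p = 0.0531) and when the animals of an array were treated as unpaired (0.194). Insr and Irs2 lie on chromosome 8, as does Wrn, and whether position plays a part was not tested.

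Irs1, an adaptor that hands the signal from the receptor to phosphatidylinositol 3-kinase, had ratios of 0.38, 0.11, 0.32 and 0.30 on its brighter probe, A_52_P175242. These made a mean of 0.28 ± 0.11 (SD, n = 4), 1.21-fold higher, with a limma adjusted p of 0.0279. The dimmer probe, A_52_P171212, gave -0.13, -0.05, -0.16 and -0.11, a mean of -0.11 ± 0.05 (limma adjusted p = 0.128), and was well above background on 3 arrays only. All 4 arrays were above 0 on the first probe and below 0 on the second. With median centring in place of loess both probes passed, in opposite directions. The brighter was at 0.36 (limma adjusted p = 0.0176) and the dimmer at -0.22 (0.0451). The mean of both was 0.08 (limma adjusted p = 0.192), and the call of the brighter probe was also lost when any 1 array was left out, with adjusted p from 0.0597 without replicate 2 to 0.0855 without replicate 4, through 0.0847 without replicate 1 and 0.0694 without replicate 3.

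The kinases that act on FoxO factors did not pass. Akt1, the more widely expressed of them, had 10 spots of probe A_51_P237553 on each array, whose mean ratio was -0.10, -0.04, -0.21 and -0.41. The mean was -0.19 ± 0.17 (SD, n = 4; limma adjusted p = 0.106). The spots of the same array differed among themselves with an SD of 0.07 to 0.09, and on array 1 only 6 of the 10 were free of outlier flags. This is the 1 place among the 15 probes where the error of a spot could be seen, since every other probe had 1 spot per array. The second Akt1 probe gave -0.06 ± 0.08 (limma adjusted p = 0.449). For Akt2, the form through which insulin mainly acts in liver, probe A_51_P408044 gave -0.08, -0.07, -0.08 and -0.08. Its SD of 0.006 was lower than that of nearly all probes of the array, only 0.0154% of which had one as small. Its 95% interval ran from -0.17 to 0.02 and its limma adjusted p was 0.238. The other Akt2 probe gave 0.08 ± 0.12 (limma adjusted p = 0.397).

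Foxo1, the FoxO factor that insulin chiefly restrains in liver, was the only one of the 6 genes with 2 probes to be called on both. On probe A_51_P138044 the log2 intensities were 13.03, 12.91, 12.97 and 13.01 in the mutants and 13.69, 13.47, 13.54 and 13.65 in the wild-type mice. The groups did not overlap. The ratio was -0.66, -0.56, -0.56 and -0.64, a mean of -0.60 ± 0.05 (SD, n = 4) or 1.52-fold lower, with a limma adjusted p of 0.00458. Its size was above that of 99.3% of all probes. The second probe, A_52_P453884, gave -0.18, -0.09, -0.25 and -0.32, a mean of -0.21 ± 0.10 (limma adjusted p = 0.0436), again without overlap. Of the 15 probes 3 had groups that did not overlap, both of Foxo1 and the first of Insr, against 7.18% of all probes. The mean of both Foxo1 probes was -0.41 (limma adjusted p = 0.0123). The first probe had an adjusted p of 0.0510 with the animals unpaired, and the second lost its call when any 1 array was left out (adjusted p = 0.104, 0.0804, 0.106 and 0.145 without replicate 1, 2, 3 and 4). The second probe also missed the threshold with the authors' deposited ratios (limma adjusted p = 0.0541), plain subtraction (0.0540), trend and robust moderation (0.0637), Agilent's signals (0.0680) and median centring (-0.13, 0.107).

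**Figure D2:**
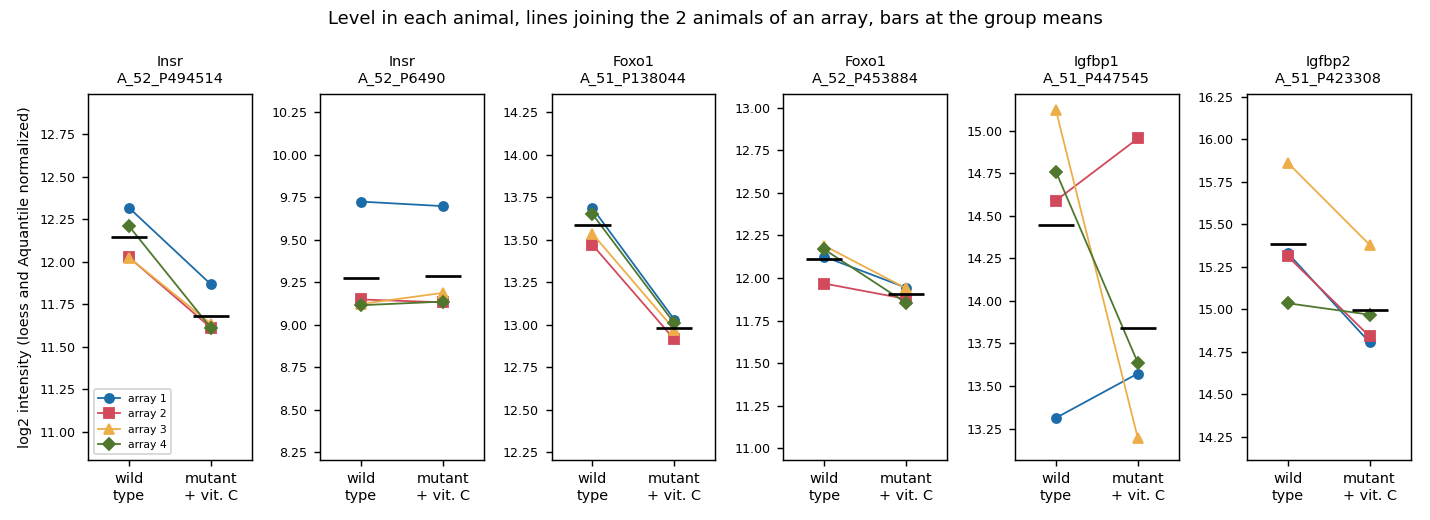
Log2 intensity (vertical axis, loess and Aquantile normalized, each panel spanning the same number of log2 units) of 6 probes in the wild-type and mutant animals, with 1 line per array joining its 2 animals and a black bar at each group mean. All 4 lines fall for both Foxo1 probes and for the first Insr probe, and the Igfbp1 lines cross, rising on arrays 1 and 2 and falling on arrays 3 and 4.

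Foxo3, a related factor, gave probes of opposite sign. Probe A_51_P145507 had ratios of 0.26, 0.31, 0.21 and 0.23, a mean of 0.25 ± 0.04 (SD, n = 4; limma adjusted p = 0.0201), 1.19-fold higher. Probe A_52_P373852 gave -0.15, -0.18, -0.04 and -0.25, a mean of -0.15 ± 0.09 (limma adjusted p = 0.0811). The mean of both was 0.05 (limma adjusted p = 0.425), and the call of the first was lost without replicate 1 (0.0619), 2 (0.0795) or 4 (0.0635). Foxo4, the member on the X chromosome, had ratios of -0.01, -0.24, 0.23 and 0.08, with signs that differed between arrays and a mean of 0.01 ± 0.19 (limma adjusted p = 0.918).

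Each of the 6 genes with 2 probes had probes that differed in the same direction on every array. The difference between probes was 0.47 ± 0.10 (SD, n = 4) for Insr, with A_52_P6490 above A_52_P494514. Foxo3 differed by 0.41 ± 0.11 and the others by less. In an exact sign-flip test on the 4 arrays, two-sided, each of the 6 differences had p = 0.125 (0.125 after Benjamini-Hochberg adjustment over the 6). That is the smallest value this test can give with 4 arrays, so it cannot reach 0.05 here. In 4 of the 6 genes the probe means had opposite signs. How often either pattern occurs among all genes with several kept probes was not counted, so neither is read as a trait of these genes. Calls on 1 probe only were common on these arrays, where 13.0% of all probes were called: of 1360 genes with several kept probes whose brightest probe was called, 184 had every other probe called in the same direction and 1017 had none. That count is of calls and not of opposite signs. Whether probe-specific dye effects, splice forms or cross-hybridisation take part was not tested.

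Igfbp1, a secreted carrier of insulin-like growth factors that is made in fasting and stress and is switched off by insulin, had the largest SD of the ratio among the 15 probes. Its log2 intensity was 13.57, 14.96, 13.19 and 13.64 in the mutants and 13.31, 14.59, 15.12 and 14.76 in the wild-type mice. The groups overlapped over nearly their whole range, which was 1.76 log2 units in the mutants and 1.81 in the wild-type mice. The ratios were 0.26, 0.37, -1.93 and -1.12, positive on 2 arrays and negative on 2. Their mean was -0.61 ± 1.11 (SD, n = 4) with a 95% interval from -1.48 to 0.27 (limma adjusted p = 0.297), and 99.9% of all probes had an equal or smaller SD. The mean was -0.17 without replicate 3, -0.93 without replicate 2 and -0.36 with median centring. The acute phase gene Saa1 also varied between arrays, with ratios of -0.97, -2.42, -2.34 and -4.19, and its part in the Igfbp1 values was not tested.

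Igfbp2, the other carrier, had log2 intensities of 14.80, 14.84, 15.38 and 14.97 in the mutants and 15.33, 15.31, 15.86 and 15.03 in the wild-type mice. The mutant was below its wild-type partner on every array, although the groups overlapped. The ratio was -0.53, -0.47, -0.48 and -0.07, a mean of -0.39 ± 0.21 (SD, n = 4) or 1.31-fold lower (limma adjusted p = 0.0306). Array 4 stood apart, and without replicate 4 the mean was -0.49 (limma adjusted p = 0.0193). The call was lost without replicate 1 (0.0930), 2 (0.114) or 3 (0.0766), and median centring in place of loess moved the mean to -0.04 (0.811).

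**Figure D3:**
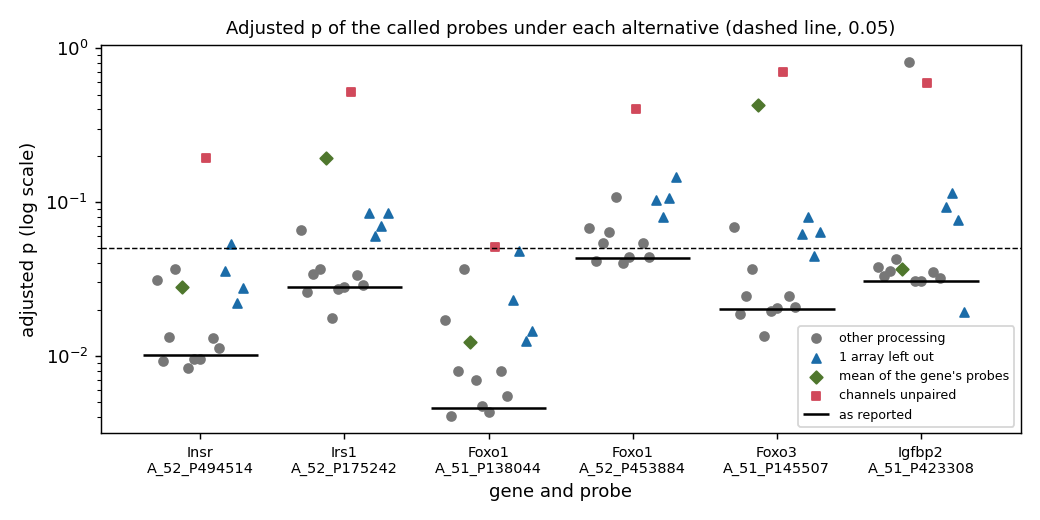
Adjusted p (vertical axis, log scale) of the 6 called probes (horizontal axis) as reported (black bar) and under each alternative (points), with a dashed line at 0.05. Foxo1 A_51_P138044 is above the line once, at 0.0510 with the channels unpaired, and the other probes are above it in between 2 and 10 of their alternatives.

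The promoter windows of the genes were read from RefSeq (GRCm38.p6), each from 250 bases before to 50 after an annotated gene start. They matched 8 of the 10 genes, with 13 windows, Insr and Foxo4 being the exceptions. The insulin response motif CAAAACA, searched on both strands, was present in 3 of these windows, those of Irs1, Irs2 and Igfbp1, and in 6.28% of all 32851 windows. The FoxO motif GTAAACA, also on both strands, was present in 1, of Akt1, and in 3.65% of all; none of the 13 windows held both. A stretch of 44 bases around 1 match of each such window is printed 5′ to 3′ on the strand of the gene, with the match in capitals. Where the match lies on the opposite strand the capitals read TGTTTTG or TGTTTAC. The Irs1 match at -32 is not printed.
Igfbp1, chr11:7197661-7197704, plus strand: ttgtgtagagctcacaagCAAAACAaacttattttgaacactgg
Irs1, chr1:82291525-82291568, minus strand: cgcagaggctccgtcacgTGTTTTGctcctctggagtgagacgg
Irs2, chr8:11008941-11008984, minus strand: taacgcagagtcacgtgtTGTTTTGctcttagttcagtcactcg
Akt1, chr12:112675020-112675063, minus strand: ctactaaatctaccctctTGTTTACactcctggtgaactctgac
Counted from the gene start, the match lay at -108 in Igfbp1, -111 and -32 in Irs1, -37 in Irs2 and -161 in Akt1. A match is a stretch of letters and not a measured site. Of these genes Irs1 had 1 probe higher in the mutants, Igfbp1 and Akt1 did not pass, and Irs2 had no row under that symbol.

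Among genes known to be raised by insulin in liver, most of those that passed were higher in the mutants. On that list of 14 genes, 7 passed as higher and 1 as lower, 6 did not pass, against 7.01% higher and 6.64% lower among all genes. The list's median log2 ratio was 0.59, that of all genes 0.01. Srebf1, the transcription factor of fat synthesis, rose by 0.58 ± 0.13 (SD, n = 4; limma adjusted p = 0.00878), the desaturase Scd1 by 1.30 ± 0.60 and the pyruvate kinase Pklr by 0.59 ± 0.33. Median centring put Srebf1 at 1.07, and without replicate 2 its limma adjusted p was 0.0532. The other higher genes, named after their values were seen, were Fasn, Acly, Me1 and Thrsp. The second Acly probe had the opposite sign and did not pass, at -0.13 ± 0.07 (limma adjusted p = 0.103). The second Me1 probe did not pass at 0.73 ± 0.67 (0.0725), and the second Fasn probe was higher at 0.96 ± 0.71 (0.0438). Angptl8, a secreted inhibitor of lipoprotein lipase that appears as Gm6484 in the deposited table, went the other way at -1.21 ± 0.56, and its second probe gave -1.02 ± 0.50. Mlxipl, not called on its brightest probe at -0.12 ± 0.16, was higher on its other at 0.18 ± 0.06 (limma adjusted p = 0.0499). The count was 0 without replicate 2 and 4 and 3 without replicates 1 and 4. The list was drawn up with higher fat synthesis genes in these data already known, so it is not independent evidence of direction.

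**Figure D4:**
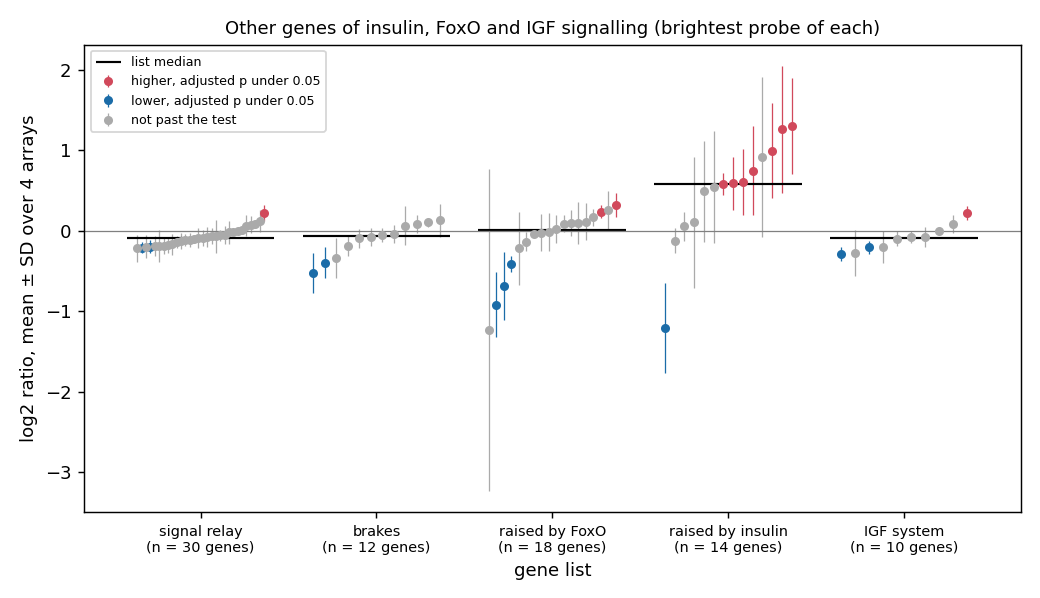
Mean log2 ratio with its SD over 4 arrays (vertical axis) for each gene of 5 lists (horizontal axis), by its brightest probe; red and blue points passed at an adjusted p under 0.05, grey ones did not, and black lines are list medians. The insulin-raised list has a median of 0.59, and the other medians lie between -0.09 and 0.00.

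Genes known to be raised by FoxO factors went both ways. Among the 18 measured, 2 passed as higher and 3 as lower, 13 did not pass, and the median was 0.00. That is 27.8% called, beside 13.7% of all genes. Txnip, which binds thioredoxin and limits glucose uptake, was lower at -0.92 ± 0.41 (SD, n = 4), and its second probe gave -0.53 ± 0.24. Gadd45a, a stress-response gene, was lower at -0.69 ± 0.42 and the ubiquitin ligase Fbxo32 at -0.41 ± 0.10, with 0.06 ± 0.07 on the other Fbxo32 probe. The Gadd45a call was lost without replicate 1 (limma adjusted p = 0.0906), 2 (0.0896) or 3 (0.0503) and with Agilent's processed signals (0.0565). That of Fbxo32 was lost without replicate 2 (0.0615). Apoc3, a lipoprotein component, was higher at 0.32 ± 0.15 and at 0.34 ± 0.19 on its second probe. The first Apoc3 probe was at 0.91 with median centring and at 0.16 with Agilent's processed signals (limma adjusted p = 0.199), and its call was lost without replicate 2 (0.102), 3 (0.0683) or 4 (0.0860). Sesn3, a sestrin that supports Akt activity, was at 0.24 ± 0.08, with -0.003 and -0.02 on its others. The glucose-6-phosphatase gene G6pc had ratios of -0.05, 0.07, -0.90 and 0.01 and did not pass (limma adjusted p = 0.370). Cdkn1b, not called on its brightest probe at -0.05 ± 0.03, was lower on another at -0.25 ± 0.08 (limma adjusted p = 0.0274). Without replicates 1, 2, 3 and 4 the count of 5 was 2, 0, 2 and 3.

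Of 30 genes of the signal relay and relatives of the genes above, 1 was higher and 2 were lower, with a median of -0.09. The 10% called is near the 13.7% of all genes. Rictor, not called on its brightest probe at 0.09 ± 0.05, was lower on 2 of its 7 others, at -0.20 and -0.24. Foxo6, the remaining FoxO factor, was at 0.22 ± 0.10 (SD, n = 4), the catalytic subunit gene Pik3ca at -0.20 ± 0.08 with -0.34 ± 0.09 on its second probe, and the exchange factor Sos1 at -0.21 ± 0.07 with 0.19 ± 0.13 on its other probe. With median centring Foxo6 moved to 0.10 (limma adjusted p = 0.179), Pik3ca to -0.13 (0.0965) and Sos1 to -0.19 (0.0551), and with Agilent's processed signals Foxo6 was at 0.42 (0.0536). The Foxo6 probe was dim, with mean log2 intensities of 7.26 in the mutants and 7.04 in the wild-type mice. Those of the dimmer Irs1 probe were 7.23 and 7.34. Foxo6 was nevertheless well above background in both channels on all 4 arrays. Of 12 brakes on the pathway 2 were lower, 16.7% and so also near that share: Trib3, a pseudokinase that binds Akt, at -0.52 ± 0.25, and Grb10, an adaptor that inhibits the receptor, at -0.40 ± 0.19. Neither passed on its other probes, at 0.03 for Trib3 and -0.01 and 0.09 for Grb10, and averaged over their probes neither passed (limma adjusted p = 0.0713 for Trib3 and 0.132 for Grb10). Socs3, not called on its brightest probe at 0.11 ± 0.05, was lower on its other at -0.61 ± 0.38 (limma adjusted p = 0.0317). Phlpp2, not called on its brightest probe at 0.08 ± 0.11, was higher on its other at 0.20 ± 0.05 (limma adjusted p = 0.0342). In the list of insulin-like growth factors, receptors and other carriers, 1 of 10 genes was higher and 2 were lower, 30% against the 13.7% of all genes. Igf1 was not called on its brightest probe, at -0.10 ± 0.09. Another Igf1 probe was higher at 1.07 ± 0.77 (limma adjusted p = 0.0417), and the remaining ones, at -0.13 and -0.05, did not pass. Igfbp5 was higher at 0.22 ± 0.09, with 0.09 ± 0.25 on its second probe and 0.15 over both (limma adjusted p = 0.0964). The lower genes were Igfbp4 at -0.29 ± 0.09, with -0.28 ± 0.14 on its second probe, and Igfbp7 at -0.21 ± 0.08. With median centring Igfbp4 moved to -0.13 (limma adjusted p = 0.143) and Igfbp7 turned to 0.13, and with Agilent's signals Igfbp4 was at -0.18 (0.165) and Igfbp7 at -0.33 (0.0546). The relay count was 0 without any 1 of the 4 replicates, the brake count 0 without replicate 1 or 2 and 1 without replicate 3 or 4, and the carrier count 1 without replicate 1 and 0 without replicate 2, 3 or 4.

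Some markers of other liver cells moved with the groups. The summed intensity of 5 cholangiocyte markers was 13044 to 15306 in the mutants and 17840 to 23024 in the wild-type mice, with 2 of 5 lower (Spp1 and Sox9), beside 6.64% of all genes. Spp1 alone made up 82.0% to 91.1% of that sum, Krt19, Krt7 and Epcam did not pass, and the other Sox9 probes gave -0.23 and 0.01. That of 7 sinusoidal endothelial markers was 38523 to 42257 and 45051 to 53323, with 2 of 7 lower (Clec4g and Kdr). Clec4g made up 46.6% to 53.7% of it, and the other probes, at 0.04 and 0.11 for Clec4g and 0.08 for Kdr, did not pass. The sum of 8 hepatocyte markers was 1030350 to 1134200 and 776037 to 929909, with 3 higher and 1 lower. Their part in the lower Insr, Foxo1 and Igfbp2 values was not tested, and fewer cells of a type cannot be told apart from less RNA per cell in whole liver. The 8 Kupffer cell, 6 lymphocyte, 4 neutrophil, 4 erythroid and 5 adipocyte markers had 0 called by limma, and at an unadjusted p under 0.05 these lists had 0, 1, 1, 0 and 0. Of 8 stellate cell markers 2 were lower, and of 5 pancreatic acinar markers 1.

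The genes whose levels over the 8 animals were most like those of Insr (probe A_52_P494514) were Mgam, Wdr7 and Stard8, each with a Pearson r of 0.99. For Foxo1 (A_51_P138044) they were Nars, Tmem66 (now Saraf) and Crtc2, also at 0.99. In all 359 and 304 of 20603 genes had an r above 0.9 with Insr and Foxo1. For Igfbp1 only 10 did, led by Tmem220 at 0.95, the stress-induced sestrin Sesn2 at 0.92 and Zcchc10 at 0.92. These are descriptions over 8 levels that share group, dye and array.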

How the data were processed

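Liver RNA of 4 mutant and 4 wild-type mice was read on 4 two-colour arrays. The deposited spot and background intensities are medians over pixels, made by the authors with Agilent's Feature Extraction 10.5.1.1 on a design annotated on mm9, per the file headers. Processed signals and their log10 ratio were deposited beside them. The authors' deposited table holds a log2 ratio per array, p-values, and scores (moderated statistic, log odds, signed fold change), and limma is named without a version in the submitters' processing notes. Its ratios matched background subtraction with loess (slope 1.00 on each array).

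Here median intensities were corrected with normexp (offset 50) and normalized by loess in limma 3.58.1 (R 4.3.3). The files used hold no mean intensities. Control and outlier-flagged spots were removed and spots averaged per probe. Probes well above background in 1 channel on at least 3 arrays, with values on 3, were kept. The mean ratio was tested by lmFit and eBayes, and p-values of the 39083 probes were adjusted by Benjamini-Hochberg. The 2 animals of an array are paired by sharing it; nothing else in the labels pairs them. The labels call the replicates biological. Levels per channel (loess, Aquantile) are open to dye bias.

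Genes, lists and alternatives were chosen with earlier results of these data known. Named were all listed genes and, per list, up to 3 called genes of smallest p per direction, by brightest probe. Genes named outside this rule (Fasn, Acly, Me1, Thrsp, G6pc, Saa1, Igf1, Socs3, Phlpp2, Rictor, Cdkn1b, Mlxipl) were chosen after their values were seen. On simulated arrays of 38930 probes, with few probes changed and noise independent between probes and arrays, changes of 1.15-fold were recovered in 0% of cases. The share was 34% at 1.32-fold, 78% at 1.5-fold and 92% at 2-fold, and 2.86% of calls were false. The simulation held no dye or shared array effects, and far fewer changed probes than the 13.0% called in the real data. Its shares therefore do not give the recovery or the false calls of the test reported here. 1 listed gene is counted but not reported here by name.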

Additional observations from a re-analysis of the deposited data

Results flagged for a closer look

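Among 62 groups of 4 values checked, 6 held a value far from the other 3, a pattern that chance gives in about 1 of 20 groups. On array 1, 4 levels stood above the other arrays: the mutant level of Insr A_52_P494514 at 11.87 (others 11.61 to 11.63), both levels of Insr A_52_P6490, at 9.70 in the mutant (others 9.13 to 9.19) and 9.72 in the wild type (others 9.12 to 9.15), and the mutant level of Akt1 A_52_P418014 at 8.58 (others 7.74 to 7.84). Array 1 also had the fewest probes well above background. The log2 ratio of Igfbp2 A_51_P423308 was -0.0673 on array 4 and between -0.53 and -0.47 on the others. The ratio of Grb10 was -0.69 on array 3 and between -0.33 and -0.29 on the others.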

How the results depend on the processing

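Of the 15 probes of the listed genes, 6 passed as reported and 5 to 7 did without background correction, with plain subtraction, median centring, the authors' ratios, no filter, a strict filter, trend and robust moderation, array weights or an adjusted p under 0.10. Agilent's processed signals gave 3, and treating the 8 channel levels as unpaired (no replicate block, the pairing being the shared array) gave 0. Leaving out each array gave 1 to 3. Over all probes the count of 5078 became 1196 with Agilent's signals, 26 with no replicate block, 9473 at an adjusted p under 0.10 and 160 to 2268 with an array left out. Median centring raised the share of higher calls from 47.7% to 58.8%. Agilent's signals, no replicate block and leaving out an array gave for the insulin-raised list 4, 0 and 0 to 6 of the 8 called, for the FoxO-raised list 2, 0 and 0 to 3 of 5, for the relay 0, 0 and 0 to 0 of 3, for the brakes 1, 0 and 0 to 1 of 2, and for the IGF list 0, 0 and 0 to 1 of 3. Median centring gave 10 FoxO-raised, 1 relay and 4 brake genes; trend and robust moderation 5 insulin-raised and 1 relay gene; an adjusted p under 0.10 9 relay and 4 brake genes; the mean of a gene's probes 0 brake genes. Signs turned for Igfbp7 (0.13, median centring), Akt2 A_52_P2977 (-0.00058, mean of probes), Foxo4 (-0.058 without replicate 3 and -0.0071 without replicate 4, range up to 0.10) and Insr A_52_P6490 (-0.10 with Agilent's signals, and from -0.0073 to 0.023 with an array left out). Leaving out an array also lowers the number of values per probe; other causes were not tested.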
